A study of Mus musculus with 2 samples.

Results

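The expression of 10 imprinted genes was followed in single cells of a mouse pancreatic cancer line: H19, Igf2, Igf2r, Meg3, Peg3, Mest, Plagl1, Cdkn1c, Grb10 and Kcnq1ot1. They were chosen by symbol, as 10 of the 33696 features of the count matrix, and each symbol belonged to 1 feature. The cells were the pancreatic ductal adenocarcinoma line KPCY 6419c5, carrying the BASELINE lineage-tracing system. Clones had been transfected with an adenine base editor built on Cas12a, sorted as single cells and expanded. Clones 76 and 84, both after 19 days of editing, were pooled in equal numbers and loaded as 1 droplet library of the 3′ v4 chemistry. Both clones carried the editor, and no unedited control was analysed here. A second pool, of 5 clones, was not analysed here.

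The cells carried no clone label, so they were sorted by marker genes into A cells and B cells, which are groups and not named clones. Barcodes were kept with 2000 or more unique molecular identifiers (UMIs), 1000 or more genes and no more than 15% of UMIs from mitochondrial genes, which left 21361 of 22178. A cells had at least 2 UMIs of Pde10a, Plcb1, Galnt18, Arhgap15 and Ceacam1 together, and at least 3 times as many as of the B genes. B cells had at least 2 UMIs of S100a7a, Rgs20, Hs6st2, Ccbe1, Ctse and Mal, and at least 3 times as many as of the A genes. The rule gave 7816 A cells with 40272805 UMIs and 8936 B cells with 52771426 UMIs. It left 4609 cells in neither group, of which 1339 had no UMI of these genes. At the edge of the rule, 1650 A cells and 1197 B cells had exactly 2 UMIs of their own genes, and 1535 and 950 cells had 1 UMI and stayed outside. None of the 10 imprinted genes was used to sort the cells. Each group came from the same single library, so there was no replicate and no test between groups, and intervals at 95% cover counting error only.

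Of the 9 listed epithelial markers of the labelled cell type, 9 had more than 3 UMIs in A cells and 8 in B cells, where Cldn7 had 0. The 9 genes summed to 2740 CPM (the usual depth-scaled unit, UMIs of a gene over all UMIs of the group) in A cells and 7584 CPM in B cells, led by the keratin Krt18 (1083 and 3019 CPM). Epcam went the other way, with 31.8 and 3.16 CPM. The 8 mesenchymal markers summed to 2956 and 3106 CPM, led by Vim (1375 and 1972 CPM). Cdh2 was also higher in B cells (27.2 and 199 CPM), and the other 6 were higher in A cells, among them Fn1 (167 and 17.9 CPM), S100a4 (1185 and 823 CPM) and Twist1 (26.8 and 0.853 CPM). Markers of other cell types were lower. Endocrine markers had 5 and 2 UMIs, immune markers 3.45 and 0.947 CPM, erythroid markers 0.795 and 3.49 CPM, and acinar markers 13.7 and 4.42 CPM. The endothelial list, with 36.9 and 8.70 CPM, came mostly from Egfl7 (32.6 and 7.75 CPM). The fibroblast list, with 146 and 6.82 CPM, came nearly all from Acta2 (144 and 5.89 CPM). Of the other endothelial and fibroblast markers, Tek had 138 UMIs in A cells and 8 in B cells, Pecam1 26 and 10, Cdh5 12 and 32, Col3a1 51 and 2, Pdgfra 25 and 32, and Col1a1 9 and 11. The immune marker Ptprc had 4 and 2. Kdr, Emcn, Col1a2, Lum, Tyrobp, Ins1 and Gcg had 0 UMIs in both groups. Their part in the differences below was not tested. The median depth was 4699.5 UMIs per A cell and 5440.5 per B cell, and the median mitochondrial share 3.19% and 1.89%.

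An imprinted gene is expressed mainly from the copy inherited from 1 parent, under the control of DNA methylation laid down in the egg or the sperm. Many imprinted genes set growth before birth: Igf2, Mest, Peg3 and Plagl1 are expressed from the paternal copy and H19, Igf2r, Meg3, Cdkn1c and Grb10 mainly from the maternal copy. Kcnq1ot1 and Airn are long noncoding RNAs of the paternal copy that silence neighbouring genes on the same chromosome. Many members of the group are high in the fetus and low after birth. The counts do not separate the 2 parental copies, so nothing below measures imprinting itself.

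RefSeq promoter sequence was at hand for 8 of the 10 genes, at 15 start sites. The 250 bases before the start are shown, at 1 start site each, for the 3 genes that reached 5 CPM, Kcnq1ot1, Igf2r and Mest, and for Meg3, which had no UMI. Capitals mark matches to 4 motifs, each searched on both strands. They are the CCAAT box, the GC box with the letters GGGCGG, an E-box spelled CACGTG, and the cyclic AMP response element, whose letters are TGACGTCA. The build of these sequences is GRCm38.p6, whereas the submitters' processing notes name GRCm39 for the counts.
Kcnq1ot1, chr7:143296548-143296797, minus strand: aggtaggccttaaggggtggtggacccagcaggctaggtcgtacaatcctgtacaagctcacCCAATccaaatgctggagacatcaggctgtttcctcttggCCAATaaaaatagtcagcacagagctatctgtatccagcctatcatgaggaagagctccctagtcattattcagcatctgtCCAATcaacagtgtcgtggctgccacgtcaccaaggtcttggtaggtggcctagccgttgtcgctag
Igf2r, chr17:12769707-12769956, minus strand: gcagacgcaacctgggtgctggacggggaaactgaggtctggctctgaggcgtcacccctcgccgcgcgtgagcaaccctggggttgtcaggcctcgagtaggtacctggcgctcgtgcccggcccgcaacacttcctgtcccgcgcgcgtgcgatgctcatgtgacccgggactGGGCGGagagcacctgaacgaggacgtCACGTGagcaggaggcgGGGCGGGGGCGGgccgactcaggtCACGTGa
Mest, chr6:30737800-30738049, plus strand: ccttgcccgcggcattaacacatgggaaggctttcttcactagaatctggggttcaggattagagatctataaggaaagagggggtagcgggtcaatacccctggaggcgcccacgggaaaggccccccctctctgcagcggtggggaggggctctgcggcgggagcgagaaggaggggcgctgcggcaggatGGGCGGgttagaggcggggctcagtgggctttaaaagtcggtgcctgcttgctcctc
Meg3, chr12:109540746-109540995, plus strand: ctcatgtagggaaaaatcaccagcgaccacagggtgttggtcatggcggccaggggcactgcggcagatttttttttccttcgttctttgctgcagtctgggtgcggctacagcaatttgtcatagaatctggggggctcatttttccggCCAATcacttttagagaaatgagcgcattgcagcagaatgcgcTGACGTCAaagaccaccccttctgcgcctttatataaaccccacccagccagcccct

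The Kcnq1ot1 window held 3 CCAAT matches and 5 CpG dinucleotides. A CCAAT match was in 33.8% of all 32817 promoter windows of this length, and the median window held 6 CpG. The Igf2r window was rich in CpG, with 27, a number reached by 8.57% of windows. It held 3 GC boxes, 2 of them end to end, and 2 E-boxes. A GC box was in 32.7% of all windows and an E-box in 6.02%. The Mest window shown held 14 CpG and 1 GC box, and another of its start sites had 7 CpG and 1 GC box. The Meg3 window shown held 10 CpG, 1 CCAAT and 1 cyclic AMP response element, a motif of 1.55% of windows. The other Meg3 start site had 0 CpG and none of the motifs. Peg3, also without a UMI, had the same element once and 2 CCAAT matches, whereas Igf2, without a UMI too, had that element at none of its 4 start sites. A match is a description of letters, and binding was not measured.

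Of the 10 genes, 6 were at or near 0. Igf2, Meg3 and Peg3 had 0 UMIs in all 22178 barcodes. H19 had 1 UMI in all, in an A cell. Plagl1, a zinc-finger transcription factor, had 3, of which 1 was in an A cell and 2 in B cells. Cdkn1c, an inhibitor of cyclin-dependent kinases, had 3, of which 2 were in B cells and 1 in a cell of neither group. A count of 0 allows up to 3 UMIs, or 0.0745 CPM in A cells and 0.0568 CPM in B cells. These levels are at or under that limit in each group, so no ratio is given. As shares of cells thinned to 3000 UMIs each, a 0 allows up to 0.0405% of 7406 A cells and 0.0340% of 8827 B cells with a UMI. Igf2, Meg3 and Peg3 were therefore not detectable at this depth, and H19, Plagl1 and Cdkn1c were seen in no more than 2 cells of a group.

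**Figure D1:**
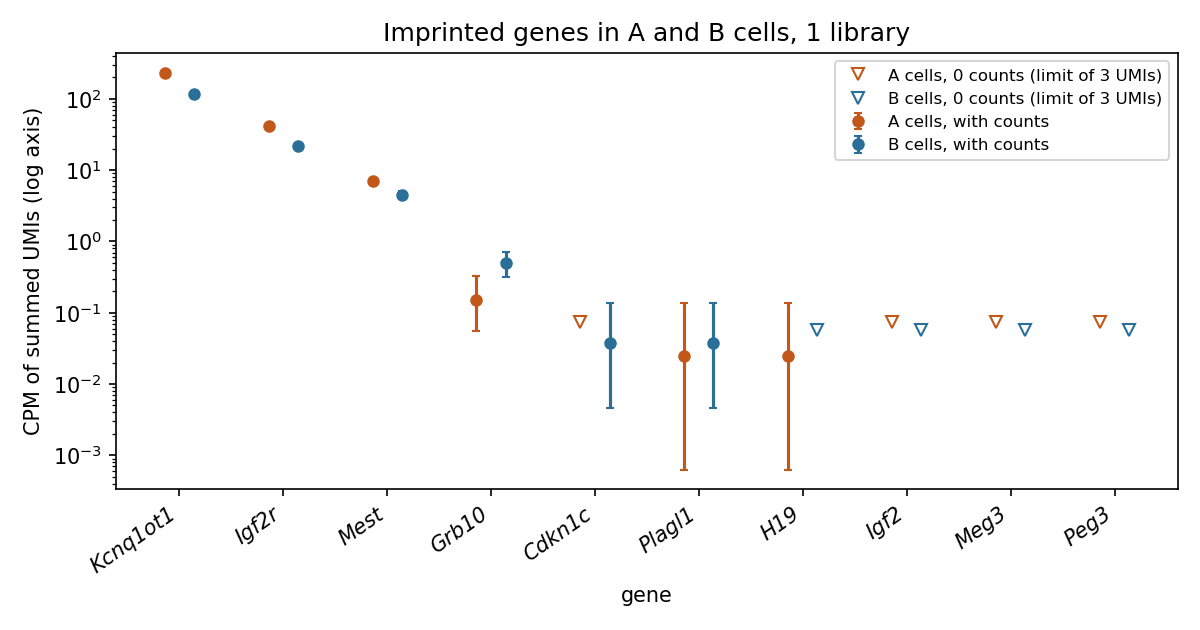
Level of each imprinted gene in A and B cells, as CPM of summed UMIs on a log axis, with bars for the 95% counting interval and open triangles at the limit of 3 UMIs for a count of 0. Kcnq1ot1, Igf2r and Mest lie above 1 CPM in both groups, and the other 7 genes lie below it.

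Kcnq1ot1 (ENSMUSG00000101609) had 9166 UMIs in A cells and 6108 in B cells. Its level was 228 CPM (223 to 232) in A cells and 116 CPM (113 to 119) in B cells. The ratio of A over B was 1.97 (1.90 to 2.03), just under 2-fold. A UMI was seen in 46.0% (44.9 to 47.2%) of thinned A cells and 29.1% (28.2 to 30.1%) of thinned B cells, and without thinning in 61.2% and 45.3%. The 4609 cells of neither group lay between the groups, at 164 CPM (159 to 169). Those cells had no UMI (1339), 1 UMI (2485) or mixed UMIs (785) of the sorting genes. Cells like A and like B may thus both be among them. No group was near 0, and the intervals of the groups did not overlap.

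Igf2r (ENSMUSG00000023830), the receptor that carries IGF2 to the lysosome for breakdown, was also higher in A cells. It had 1661 UMIs and 41.2 CPM (39.3 to 43.3) in A cells, and 1160 UMIs and 22.0 CPM (20.7 to 23.3) in B cells. The ratio was 1.88 (1.74 to 2.02). After thinning, 11.7% (11 to 12.5%) of A cells and 6.31% (5.81 to 6.84%) of B cells had a UMI, and without thinning 18.8% and 11.9%. Cells of neither group again lay between them, at 33.7 CPM (31.3 to 36.2).

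Airn, the noncoding RNA on the strand opposite to Igf2r and overlapping it, went the other way. It had 115 CPM (112 to 119) in A cells and 178 CPM (175 to 182) in B cells, a ratio of B over A of 1.55 (1.49 to 1.60). After thinning, 27.3% of A cells and 40.3% of B cells had a UMI of Airn. Whether the counting used the strand is not given in the sources used here, so reads of Airn and Igf2r cannot be fully told apart. Kcnq1ot1 lies in the same way inside Kcnq1, on the other strand, and their reads cannot be fully told apart either. Kcnq1 had 4 UMIs in each group.

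Mest (ENSMUSG00000051855), a protein of the hydrolase family, had 282 UMIs in A cells and 238 in B cells. Its level was 7.0 CPM (6.21 to 7.87) and 4.51 CPM (3.96 to 5.12), a ratio of 1.55 (1.30 to 1.85). After thinning, 2.07% (1.75 to 2.42%) of A cells and 1.34% (1.11 to 1.60%) of B cells had a UMI. Without thinning the shares were 3.15% (2.77 to 3.56%) and 2.52% (2.20 to 2.86%), with overlapping intervals. In the deeper cells thinned to 6000 UMIs they were 2.63% (1.96 to 3.46%) and 2.46% (1.96 to 3.05%), so the difference in shares was not detectable at that depth. In the annotation Mest overlaps Copg2 on the other strand, which had 42.1 and 28.6 CPM.

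Grb10 (ENSMUSG00000020176), an adaptor that restrains signalling by the insulin and IGF receptors, had 6 UMIs in A cells and 26 in B cells. That is 0.149 CPM (0.0547 to 0.324) and 0.493 CPM (0.322 to 0.722). The ratio of B over A was 3.31, with a wide interval of 1.33 to 9.83. It was seen in 6 A cells and 25 B cells without thinning. Among cells with 2 to 4% mitochondrial UMIs, a window chosen after seeing the data, the log2 ratio of A over B turned from -1.73 to 0.23, so no direction is read for Grb10.

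Free RNA in the droplets could carry a gene from one group to the other. Among 3508 genes with at least 50 CPM in A cells that the sorting did not use, the lowest level in B cells was 2.39% of that in A cells. Kcnq1ot1 in B cells was 0.509 of its level in A cells, Igf2r 0.533 and Mest 0.644. Igf2r and Mest, with less than 50 CPM in A cells, are not among those 3508 genes, and the part of free RNA was not tested.

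Of the 10 genes, 3 had at least 5 CPM in either group, and all 3 were higher in A cells, with a median log2 ratio of 0.91. Mest passed this minimum only through A cells, where it is higher, so its direction here was fixed by the filter and the counts are a description. The median over all 10171 genes at that level was 0.18, and 63.0% of them were above 0. None of the 3 reached 2-fold, which 11.6% of all genes did towards A and 8.02% towards B (19.7% in either direction). The intervals of Kcnq1ot1 and of Igf2r (1.74 to 2.02) hold 2-fold. Of the 3, 1, Kcnq1ot1, was past it with the stricter sorting rule (log2 1.04) and among cells with 4000 to 6000 UMIs (1.03). All 3 reached 1.5-fold towards A, against 25.4% of all genes, and 0 towards B, against 13.4%; in either direction 38.8% of all genes did. Among 3908 genes with at least 50 CPM the median log2 ratio was 0.11. Relative to it the log2 ratios were 0.87 for Kcnq1ot1, 0.80 for Igf2r and 0.53 for Mest. Mest was then under 1.5-fold, as it was among cells with 2 to 4% mitochondrial UMIs (0.56), a window chosen after seeing the data, so that 2 of the 3 genes were past 1.5-fold.

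The 3 genes that reached 5 CPM differed in how their UMIs spread over cells. The Fano factor, the variance over the mean of UMIs in thinned cells, is 1 for pure counting noise. For Kcnq1ot1 it was 1.20 in A cells, above 95.1% of 6409 genes with at least 20 CPM there, and 1.08 in B cells, above 88.2% of 5967 genes. The median gene had 1.03 and 1.02. Igf2r was at 1.01 in both groups, below the median gene. The genes compared were not matched on level. Kcnq1ot1 had a mean of 0.677 UMIs per thinned A cell and 0.359 per thinned B cell, and Igf2r 0.125 and 0.0657. The part of level in these Fano factors and ranks was not tested. At least 2 UMIs of Kcnq1ot1 were found in 15.7% of thinned A cells and 5.76% of thinned B cells, and of Igf2r in 0.770% and 0.261%. Airn was spread more widely than most genes as well, at 1.21 in A cells and 1.13 in B cells. Mest had a Fano factor of 1.20 in A cells and 1.02 in B cells. This rested on few cells: without thinning, 5 A cells and 2 B cells had 3 or more Mest UMIs, and 1 A cell had 8.

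**Figure D2:**
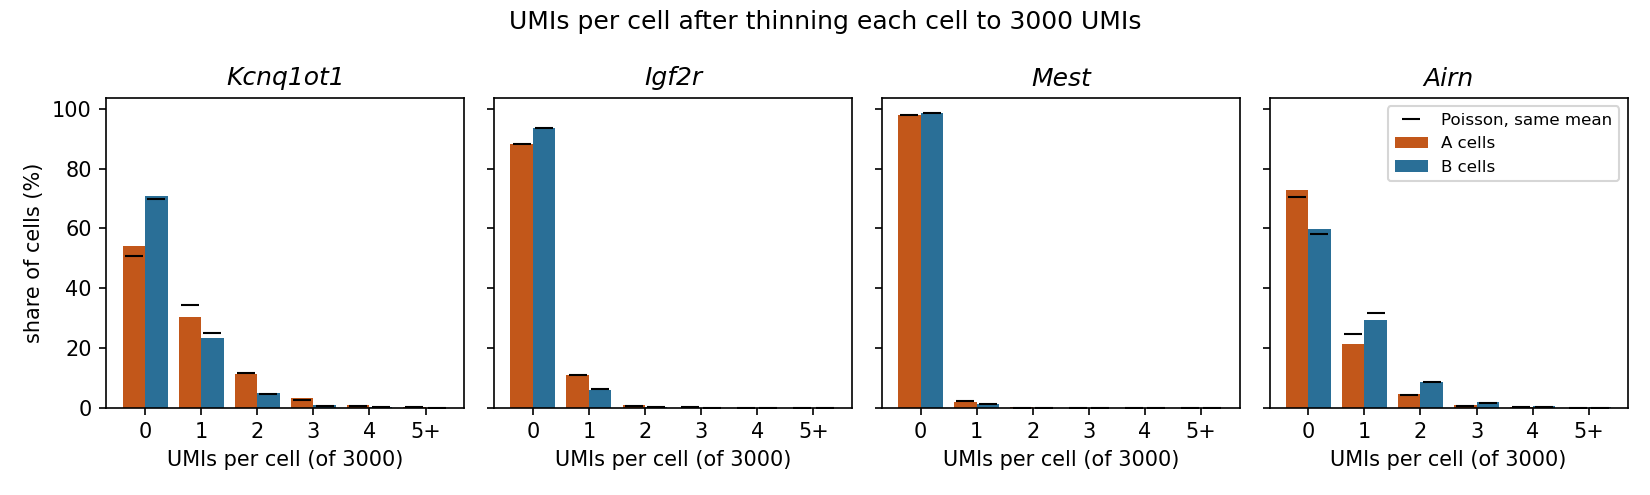
Share of cells (percent) with 0 to 5 or more UMIs of Kcnq1ot1, Igf2r, Mest and Airn after thinning each cell to 3000 UMIs, with bars for A and B cells and black ticks for a Poisson spread of the same mean. The bars of Igf2r lie on the ticks, and for Kcnq1ot1 30.3% of A cells had 1 UMI, against 34.4% for the Poisson spread.

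Kcnq1ot1 was found in the same cells as Igf2r, and in the same cells as Mest, about as often as their separate shares give. Of the 45 pairs among the 10 genes, 2 in each group had at least 20 cells expected to hold both, and both involve Kcnq1ot1. Igf2r and Kcnq1ot1 were seen together in 406 A cells against 399 expected, a ratio of 1.02 (0.922 to 1.12), and in 166 B cells against 162 expected, a ratio of 1.02 (0.875 to 1.19). Mest and Kcnq1ot1 were seen together in 61 A cells against 70.4 expected (0.866, interval 0.663 to 1.11) and in 35 B cells against 34.3 (1.02, interval 0.710 to 1.42). Every one of these intervals holds 1. Igf2r and Mest, below that minimum, were seen together in 23 A cells against 17.9 expected and in 8 B cells against 7.45. A Kcnq1ot1 UMI therefore told little about Igf2r: 11.9% of A cells with it and 11.6% of A cells without it had an Igf2r UMI.

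Airn and Igf2r, the overlapping pair, were seen together in 248 A cells against 237 expected (1.05, interval 0.923 to 1.18) and in 243 B cells against 224 (1.08, interval 0.953 to 1.23). Although their levels differed in opposite directions between the groups, within a group the cells with one were not fewer in the other. Airn and Kcnq1ot1 together gave ratios of 1.04 (0.982 to 1.11) in A cells and 1.01 (0.951 to 1.07) in B cells. Most thinned cells had no UMI of Igf2r (88.3% of A cells and 93.7% of B cells), and these intervals leave room for modest excess or deficit.

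Correlations of log counts over thinned cells of 1 group, which share library and depth, were low for every gene. For Kcnq1ot1 in 7406 A cells the closest of 6408 genes was Malat1, a nuclear noncoding RNA, at 0.10, then Palld, an actin-binding protein, at 0.068 and Arl6ip1 at 0.062. The median gene was at 0.0014 and the 99th percentile at 0.036. In 8827 B cells the closest were Pvt1 (0.047), Blm (0.047) and Vps13b (0.046), and Malat1 was at rank 1432 of 5966 genes with 0.0086. For Igf2r the closest genes in A cells were Idh1 (0.053), Zbtb20 (0.053) and Fgd4 (0.052), and in B cells Tent4b (0.042), Kmt5b (0.040) and Maco1 (0.038). Igf2r and Kcnq1ot1 correlated at 0.0086 in A cells and 0.0017 in B cells. Correlations this weak in sparse counts are no finding. Between the groups, Malat1 was close to even (7637 and 7290 CPM, log2 0.07, or below 0 relative to the median ratio), and Neat1, another nuclear RNA, had 126 and 98.0 CPM.

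Within A cells, 1142 had mostly S100g, Epcam and Tm4sf20 UMIs and 2478 mostly Tnc, Acta2 and Ptchd4 UMIs. Kcnq1ot1 had 227 CPM (215 to 240) and 242 CPM (234 to 250), with overlapping intervals. Igf2r had 48.6 CPM (43.0 to 54.7) in the S100g/Epcam cells and 40.4 CPM (37.1 to 43.8) in the Tnc/Acta2 cells, with overlapping intervals. Mest was lower in the S100g/Epcam cells, at 3.93 CPM (2.46 to 5.95) against 7.76 CPM (6.37 to 9.36), and Airn was lower there too, at 94.7 CPM (86.8 to 103) against 134 CPM (128 to 140). The median depth was 4507 and 5155.5 UMIs and the mitochondrial share 3.55% and 3.10%.

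Within B cells, 541 had mostly Krt14 and Sprr1a UMIs and 4714 mostly Areg, Cftr and Btc UMIs. Kcnq1ot1 had 113 CPM (102 to 125) and 112 CPM (108 to 116) in these cells, and Igf2r 24.9 CPM (19.9 to 30.8) and 21.4 CPM (19.7 to 23.2). Mest had 6.09 CPM (3.77 to 9.30) and 4.22 CPM (3.50 to 5.05), and Airn 188 CPM (173 to 203) and 167 CPM (163 to 172). For Kcnq1ot1 and Igf2r the states within A and B cells lay closer together than A lay to B. For Mest they did not: its states within A cells lay farther apart than A and B cells, and the S100g/Epcam cells, at 3.93 CPM, were below the 4.51 CPM of all B cells, with overlapping intervals.

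The cells were also sorted by their summed S-phase genes and mitosis genes after thinning. In A cells, Kcnq1ot1 had 278 CPM (258 to 299) in the 849 cells highest in mitosis genes and 209 CPM (193 to 226) in the 1030 highest in S-phase genes. The 896 A cells lowest in cell-cycle genes were at 254 CPM (235 to 273), which overlaps the mitosis-high value. In B cells the values were 138 CPM (125 to 152) and 122 CPM (110 to 136), with overlapping intervals. Airn was lower in the mitosis-high than in the S-phase-high cells of both groups. It was at 87.9 CPM (76.8 to 100.2) and 138 CPM (125 to 152) in A cells. In B cells it was at 149 CPM (135 to 163) and 207 CPM (190.2 to 225). In the cells lowest in cell-cycle genes Airn was at 122 CPM (110 to 136) in A cells and 226 CPM (209 to 243) in B cells. Both overlap the S-phase-high values. Igf2r was at 56.5 CPM (47.9 to 66.3) in the 896 A cells lowest in cell-cycle genes, above its 41.7 CPM (39.1 to 44.5) over all thinned A cells. The median mitochondrial share was 3.58% in these 896 cells and 3.17% in all thinned A cells, and its part was not tested. In the B cells lowest in cell-cycle genes it was at 25.3 CPM (20 to 31.6), overlapping its 21.9 CPM (20.2 to 23.8) over all. Mest rested on 10 to 27 UMIs in each of these sets, and its intervals overlapped throughout.

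**Figure D3:**
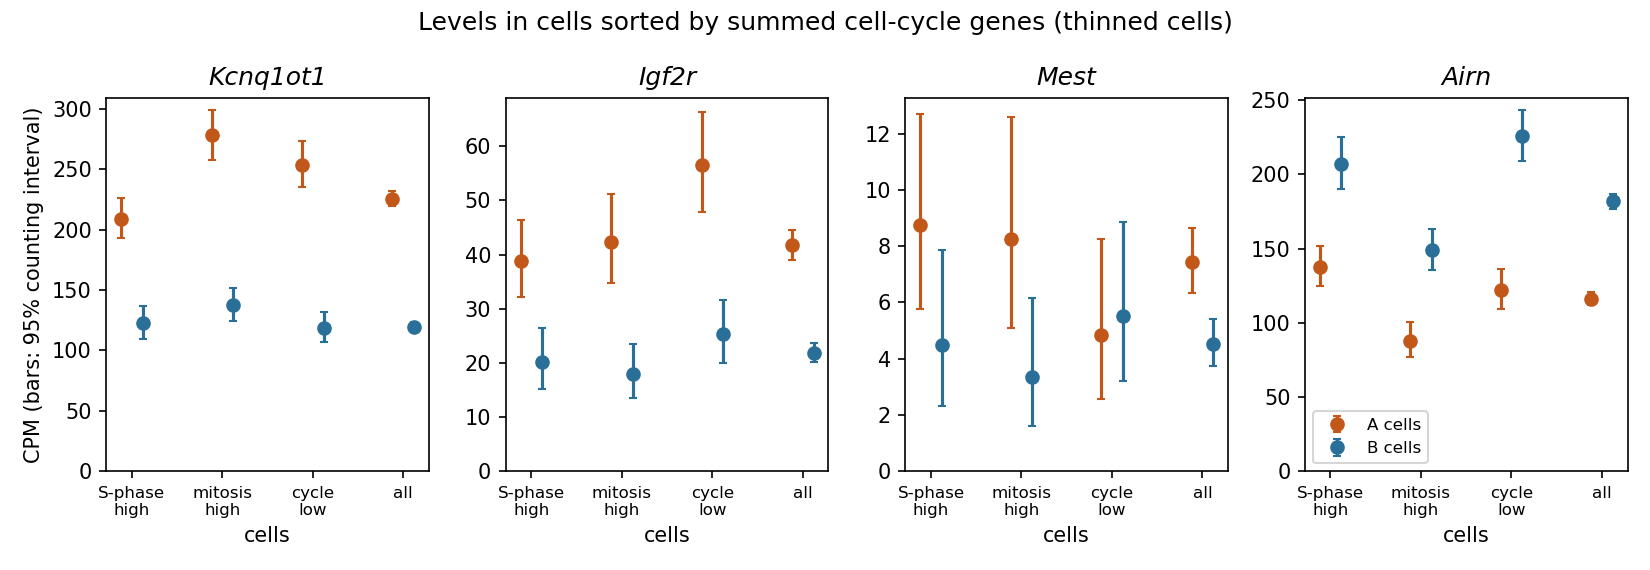
CPM of Kcnq1ot1, Igf2r, Mest and Airn in thinned A and B cells highest in S-phase genes, highest in mitosis genes, lowest in cell-cycle genes, and in all thinned cells, with bars for the 95% counting interval. Kcnq1ot1 and Igf2r are higher in A cells in all 4 sets, and Airn is higher in B cells in all 4.

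Since the mitochondrial share differed between the groups, the genes were read in quartiles of that share within each group. Kcnq1ot1 lay between 221 and 231 CPM in the 4 quartiles of A cells and between 113 and 120.1 CPM in those of B cells. Igf2r lay between 38.2 and 39.8 CPM in the lower 3 quartiles of A cells and at 48.7 CPM (44.3 to 53.4) in the upper one, and between 21.1 and 23.2 CPM in B cells. Mest was at 4.30 CPM (3.07 to 5.85) in the upper quartile of A cells, against 7.11 to 8.33 CPM in the others. In B cells Mest lay between 3.99 and 5.14 CPM, with 5.14 CPM (3.98 to 6.52) in the upper quartile. In the upper quartiles it was thus not higher in A cells. In the cells with 2 to 4% mitochondrial UMIs, 6547 A and 3419 B cells, the log2 ratio of Igf2r was 0.78 and remained above 0. That of Kcnq1ot1 among cells with 4000 to 6000 UMIs, another window chosen after seeing the data, was 1.03, just past 2-fold.

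Kcnq1ot1 sits on chromosome 7, Igf2r on 17 and Mest on 6, and Kcnq1ot1 and Mest were each set beside the 16 nearest genes with at least 5 CPM in gene order, leaving out genes used for sorting. Of the neighbours of Kcnq1ot1, 9 of 16 were higher in A cells, with a median log2 ratio of 0.26 and a range of -2.68 to 1.03. Among them Slc22a18 passed the minimum of 5 CPM only through A cells. Ifitm10, at the lower end of the range, Tnfrsf22 and Tnfrsf23 passed it only through B cells. The minimum fixed the direction of these genes, so the count and range are a description. One of the 16, Mob2 at 1.03, was at or above Kcnq1ot1. On all of chromosome 7 the median over 700 genes was 0.63, and 25% of them were at or above Kcnq1ot1, against 12.1% of all genes. The median of 533 genes of chromosome 17, which holds Igf2r, was 0.47, and 20.3% of them were at or above Igf2r, against 13.7% of all genes. Of the neighbours of Mest, 14 of 16 were higher in A cells (median 0.31), and 3 were at or above it. Podxl, 1 of these 3, passed the minimum only through A cells, as Mest itself did, and Plxna4 only through B cells. Their directions were fixed by the minimum. On chromosome 6 the median over 472 genes was 0.13, and 19.3% of them were at or above Mest, against 23.0% of all genes. The part of chromosome-wide shifts in the ratios of these genes was not tested, and DNA copy number was not measured.

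**Figure D4:**
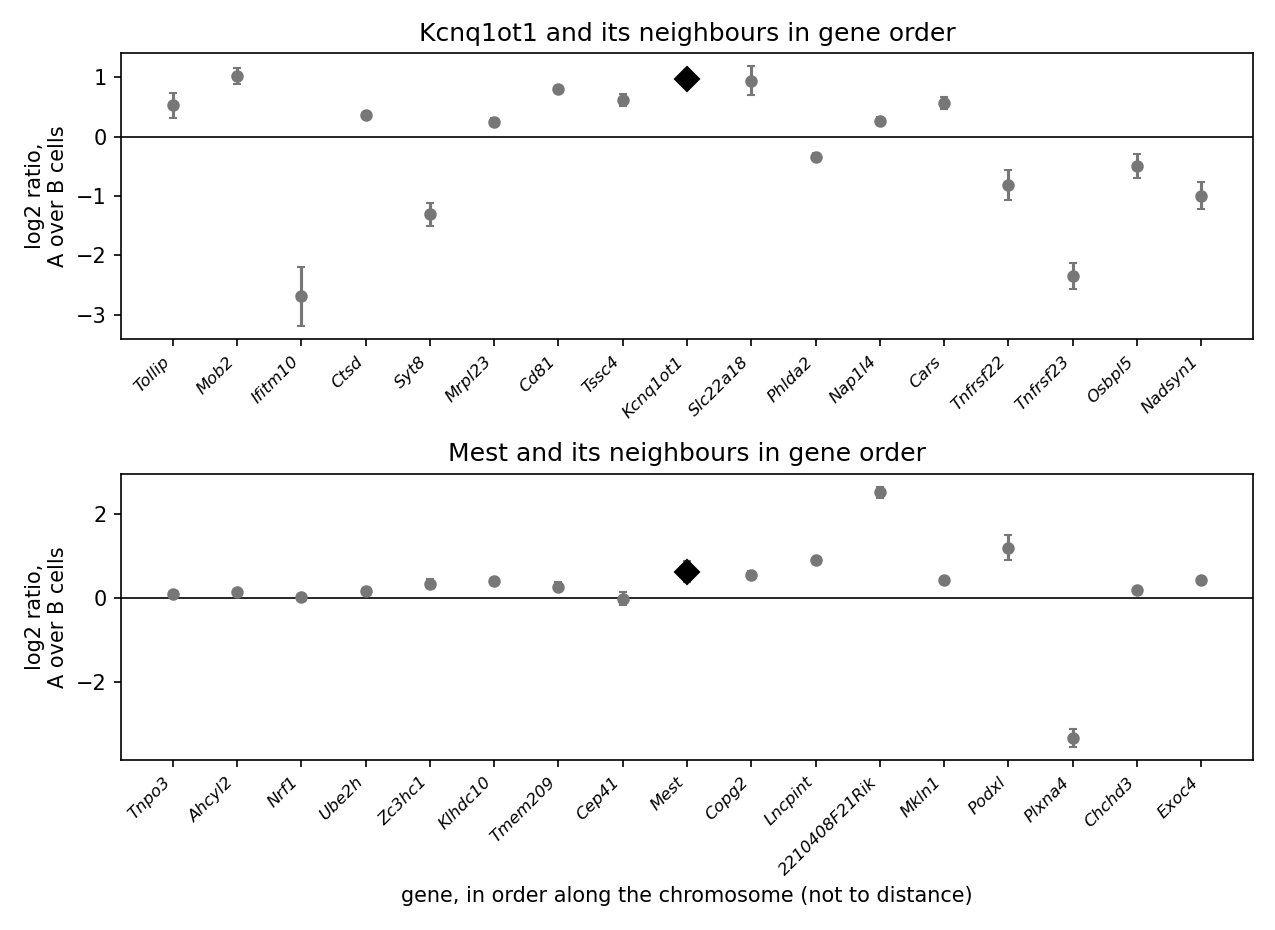
Log2 ratio of A over B cells for Kcnq1ot1 and Mest (black diamonds) and the 8 nearest genes with at least 5 CPM on either side (grey points), in gene order and not to distance, with bars for the 95% counting interval. Neighbours lie on both sides of 0, and Kcnq1ot1, at 0.98, is near the upper end of its row.

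The domain of Kcnq1ot1 holds genes that this RNA is known to silence on the paternal copy, among them Cdkn1c. Cdkn1c was at or near 0, and whether the other genes below are silenced in these cells was not measured. Slc22a18, a transporter, had 8.67 and 4.49 CPM in A and B cells, Cd81, a tetraspanin, 237 and 135 CPM, and Tssc4 47.9 and 31.1 CPM. These 3 were higher in A cells, as Kcnq1ot1 was, with log2 ratios of 0.95, 0.81 and 0.62. Phlda2, a growth-restraining gene of the placenta, had 68.4 and 86.8 CPM (log2 -0.35), and Osbpl5 7.77 and 11 CPM (log2 -0.49). Nap1l4 had 127 and 105 CPM (log2 0.27). Genes next to the RNA thus lay on both sides of even.

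Beyond the 10 genes, 59 of 60 other imprinted genes were in the matrix, and 30 of them had no more than 3 UMIs in either group. At least 5 CPM was reached by 21, of which 11 were higher in A cells and 10 in B cells, also relative to the median ratio. Their median log2 ratio was 0.14, near the 0.18 of all genes. None reached 2-fold towards A, which 11.6% of all genes did, and 3 of 21 did towards B, as did 8.02% of all genes. These 3 were Gatm, an enzyme of creatine synthesis (29.0 and 173 CPM, ratio of B over A 5.99), Axl, a receptor tyrosine kinase (22.1 and 71.3 CPM, 3.22), and Pon3 (1.96 and 5.44 CPM, 2.77). Pon3 passed the minimum of 5 CPM only through B cells, as Slc22a18 did only through A cells. Gnas, the stimulatory G protein subunit, had 520.4 and 419 CPM, and Ube3a, a ubiquitin ligase, 144 and 98.2 CPM. Inpp5f had 24.9 and 13.4 CPM and Atp10a 12 and 23.5 CPM, at log2 ratios of 0.89 and -0.97.

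**Figure D5:**
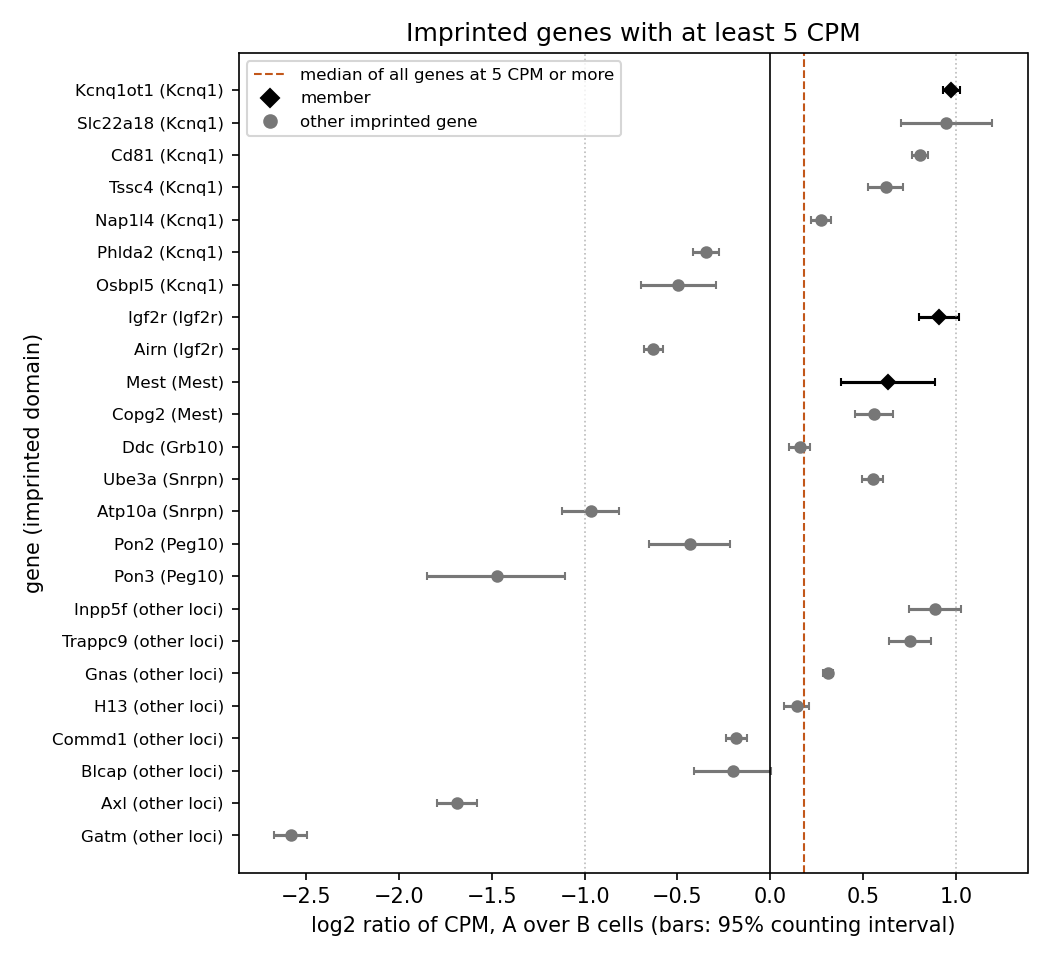
Log2 ratio of A over B cells for the 3 members (black diamonds) and 21 other imprinted genes (grey points) with at least 5 CPM, by imprinted domain, with bars for the 95% counting interval, a dashed line at the median of all genes and dotted lines at 2-fold. The members lie between 0.63 and 0.98, and Gatm, at -2.58, lies farthest from 0.

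The IGF pathway that Igf2, Igf2r and Grb10 belong to was present in other parts. Igf2 itself had no UMI. Of the ligands, Igf1 had 4 UMIs in A cells and 409 in B cells, or 0.0993 and 7.75 CPM. Its level in A cells was 0.0128 (0.00348 to 0.0331) of that in B cells, beside a lowest such share of 1.39% among 3258 genes with at least 50 CPM in B cells. The part of free RNA in the 4 UMIs was not tested, so no size of fold is read from them. The receptors Igf1r (139 and 64.5 CPM, ratio of A over B 2.16) and Insr (29.3 and 13.5 CPM, 2.16) were higher in A cells. The adaptor Irs1 was higher in A cells too (33.9 and 14 CPM, 2.42), whereas Irs2 had 8.79 and 16.6 CPM. Of the binding proteins, Igfbp4 had 406 and 709 CPM, Igfbp7 604 and 547 CPM and Igfbp3 0.670 and 8.02 CPM. Of the RNA-binding proteins named for Igf2 mRNA, Igf2bp1 was higher in B cells (5.41 and 23.2 CPM), and Igf2bp2 (151 and 80.2 CPM) and Igf2bp3 (116 and 68.6 CPM) were higher in A cells. In all, 12 of 19 genes of this list had at least 5 CPM, of which 3 were past 2-fold towards A and 4 towards B, the latter being Igf1, Igfbp3, Htra1 and Igf2bp1. Igf1 and Igfbp3 passed the minimum only through B cells, which leaves 2 of the 4 without them. Over all genes 11.6% and 8.02% were.

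Genes of a list for imprint maintenance were mostly present in both groups. The list holds genes that maintain or remove DNA methylation, and also chromatin and insulator factors. Of 21, 16 had at least 5 CPM, 13 of them higher in A cells and 3 in B cells, with a median log2 ratio of 0.53. Over all genes 63.0% were above 0, with a median of 0.18. Of these 16, 1 was past 2-fold towards A, against 11.6% of all genes: Tet2, which oxidises methylated cytosine (41.2 and 8.21 CPM, ratio of A over B 5.03). Dnmt1, the maintenance methyltransferase, had 187 and 173 CPM, and its partner Uhrf1 89.3 and 54.2 CPM. Zfp57, a zinc-finger protein that protects methylated imprints, had 24.4 and 28.0 CPM, and Trim28, which it recruits, 132 and 71.7 CPM. Ctcf, the insulator protein of the H19 and Igf2 locus, had 167 and 133 CPM. Dnmt3b had 48 UMIs in A cells and 3 in B cells.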

How the data were processed

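Single-cell expression was read in 1 pooled library. Per the file headers, the deposited matrix holds whole-number UMI counts per gene and barcode from Cell Ranger 8.0.1, with no normalization, and the submitters' processing notes name the build GRCm39. The annotation, the cell calling and the use of intron or antisense reads are not given in the sources used here. The matrix is 1 sample with no map from cells to clones, so no p-value was computed. The genes, lists and sorting rule were chosen with earlier results of these data known.

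Counts were summed per group and given as CPM with exact Poisson intervals. Ratios have exact conditional binomial intervals and shares Clopper-Pearson intervals, all at 95%. The intervals cover counting error only. For shares, spread and co-expression, each cell was thinned to 3000 UMIs, which left out 410 A cells and 109 B cells. Marked doublets were kept in the main values: Scrublet in scanpy 1.11.5 marked 1.87% of A cells, 2.33% of B cells and 9.20% of cells of neither group. They were removed in an alternative. Other alternatives were looser and stricter cell filters, a stricter sorting rule and one with fewer genes, other scalings, depths and thresholds. Gene order came from GENCODE M21, which matched 95.0% of features; the neighbours of Igf2r are not reported here. Python 3.11.15, numpy 2.4.6 and scipy 1.17.1 were used. The steps were tested on simulated data.

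The rule for names allowed the 10 members, genes of the lists with at least 20 CPM or past 2-fold with at least 5 CPM, the 3 closest correlates of a member with at least 20 CPM, the leading marker of each list and the genes of the sorting rules. Of the list genes it allowed, those printed are examples picked with their values known. Others (Malat1 and Neat1 between groups, Mob2, Ifitm10, Tnfrsf22, Tnfrsf23, Podxl, Plxna4, Kcnq1, Slc22a18, Osbpl5, Irs2, Dnmt3b and single markers below the leading one) were chosen after their values were seen.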

Additional observations from a re-analysis of the deposited data

Results flagged for a closer look

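Imprinted genes were also counted in barcodes outside the A and B cells, and were noted there because their counts exceed the 3 UMIs that a count of 0 allows. The 4609 cells of neither group held 3694 UMIs of Kcnq1ot1, 759 of Igf2r and 123 of Mest. Their levels, 164, 33.7 and 5.46 CPM, lay between those of A and B cells. The 817 barcodes that failed the cell filter held 463 UMIs of Kcnq1ot1, 66 of Igf2r and 9 of Mest.

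In those failing barcodes Kcnq1ot1 was at 493 CPM (449 to 540) and Igf2r at 70.2 CPM (54.3 to 89.3), above both A and B cells, and Airn was at 314 CPM (279 to 352). Malat1 was at 13805 CPM there, against 7637 CPM in A cells and 7290 CPM in B cells, and Neat1 at 255 CPM. In the 271 barcodes over the mitochondrial maximum Kcnq1ot1 reached 909 CPM (798 to 1030.4) and Malat1 21602 CPM. The failing barcodes had a median of 1087 UMIs and 11.1% mitochondrial UMIs. The part of depth and RNA quality in these levels was not tested. Igf2, Meg3 and Peg3 had 0 UMIs there too.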

How the results depend on the processing

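The cell windows by mitochondrial share and depth were chosen after seeing the data, and causes of the moves below were not tested. Over 10 alternatives the log2 ratio of A over B stayed above 0 for Kcnq1ot1 (0.87 to 1.04), Igf2r (0.78 to 0.96) and Mest (0.53 to 0.76), and stayed within its counting interval in 6, 9 and 10 of them. Kcnq1ot1 moved to 1.04 with the stricter sorting rule, 0.87 when centred on the median ratio, 0.92 when thinned before summing and 1.03 at 4000 to 6000 UMIs. Igf2r moved to 0.78 at 2 to 4% mitochondrial UMIs, where Grb10 reversed to 0.23. The count of members past 2-fold towards A went from 0 to 1 with the stricter sorting rule and at 4000 to 6000 UMIs, since Kcnq1ot1 passed 2-fold. At 1.5-fold it was 3. With a minimum of 1 UMI it was 1 towards A and 2 towards B, from genes with at most 26 UMIs in a group. Shares were higher in deeper cells: at 6000 UMIs they were 70.5% and 46.7% for Kcnq1ot1 in A and B cells, 21.3% and 12.4% for Igf2r and 2.63% and 2.46% for Mest. Without thinning they were 61.2% and 45.3%, 18.8% and 11.9%, and 3.15% and 2.52%. The share of Kcnq1ot1 in A cells was 47.7% with the stricter rule. At 6000 UMIs the Fano factor was 1.54 for Mest in A cells and 1.21 for Kcnq1ot1 in B cells. The ratio of joint detection of Igf2r and Kcnq1ot1 lay between 0.922 and 1.05 over 3 alternatives in each group, within its interval. Centring moved the part of 2-fold calls that were towards A from 59.2% to 52.0%. The single library gives no spread between cultures, and leaving out a replicate was not possible.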
